A study of Mus musculus with 10 samples.

Results

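The plasma cell and endoplasmic reticulum (ER) secretory programme was followed as 35 named genes among the 46316 genes of the count table. The genes were chosen by name, as regulators and products of plasma cells and as parts of the ER machinery that makes secreted proteins. The choice was made with earlier results of these data known. All 35 were in the table and all 35 had enough counts to be tested. RNA came from B cells sorted from the spleen of 10 C57BL/6 mice, and the labels give each library its own mouse. The 3 pBIC10 libraries are lymphoma cells (B220+GFP+) of moribund mice that carry IL-10F/F besides p53F/F, Blimp1F/F, IKK2castopF/stopF and Cg1Cre/+, a model labelled as deficient in IL-10, a cytokine. The 3 pBIC libraries are lymphoma cells of mice with those alleles other than IL-10F/F. The 4 YC libraries are reporter-positive normal germinal centre B cells (B220+YFP+, YFPstopF/+ Cg1Cre/+) taken 10 days after a second immunisation with sheep red blood cells, which followed a first one 20 days earlier. In places the YC labels use words of the lymphoma labels (GFP, moribund), and the description of the series was followed instead. Every group carries Cg1Cre, a Cre recombinase made from the Cγ1 locus and active in germinal centre B cells. Both lymphoma groups carry floxed Prdm1 alleles (the gene of Blimp1), floxed p53 alleles and an active IKK2 that Cre turns on. Ages of the mice are not given. pBIC libraries were all from females, and pBIC10 replicate 3 and YC replicate 3 were from males.

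Plasma cells secrete antibody at a high rate. Blimp1 shuts off B cell genes as a cell becomes a plasma cell, and XBP1 enlarges the ER. Nascent chains enter the ER through the Sec61 channel, lose their signal peptide, fold with chaperones and disulfide isomerases, and are sent to degradation when they fail. The unfolded protein response matches these steps to demand through 3 sensors, IRE1 (Ern1), ATF6 and PERK. IRE1 splices the Xbp1 transcript, a step that counts per gene cannot show.

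Libraries held 17.1 to 18.58 M counts in pBIC10, 17.8 to 19.13 M in pBIC and 12.59 to 14.33 M in YC, and 3 counts in 1 library correspond to 0.154 to 0.246 CPM (counts per M, TMM-scaled). Libraries correlated at 0.968 to 0.989 within groups and at 0.847 to 0.922 between groups (Pearson's r across genes, which are not independent replicates). Of counts on heavy chain variable segments, Ighv7-3 took 67.4 to 70.5% in each pBIC10 library and Ighv8-11 took 51.6 to 59.1% in each pBIC library. Each YC library had another leading segment, with 3.73 to 10.9%. The p-values treat the libraries of a lymphoma group as independent although they share a segment. The pBIC and YC libraries come from an earlier series and the pBIC10 libraries do not, so in either comparison of pBIC10 the batch cannot be told apart from the group. B cell markers summed to 2716 to 4578 CPM in pBIC10, 2290 to 3823 CPM in pBIC and 8444 to 10637 CPM in YC. Germinal centre markers summed to 41.2 to 87.3 CPM in pBIC10, 62.1 to 79.7 CPM in pBIC and 788 to 1344 CPM in YC. T cell markers summed to 41.8 to 62.2 CPM in pBIC10, 42.5 to 49.2 CPM in pBIC and 340 to 594 CPM in YC, and myeloid markers to 26.8 to 35.7 CPM in pBIC10, 125 to 160 CPM in pBIC and 126 to 192 CPM in YC. NK cell markers summed to 1.28 to 3.07 CPM in pBIC10, 5.94 to 17.9 CPM in pBIC and 28.7 to 74.1 CPM in YC, and erythroid and platelet markers to 394 to 1022 CPM in pBIC10, 18.2 to 414 CPM in pBIC and 112 to 345 CPM in YC. Of the 10 T cell markers, Lck was higher and the other 9 lower in pBIC10 than in pBIC (median log2 fold change -2.17), and all 10 were lower in either lymphoma group than in YC. Lck stood at 36.5, 37.6 and 57.7 CPM in pBIC10, 25.7, 9.67 and 7.66 CPM in pBIC, and 169, 179, 197 and 204 CPM in YC, so it held most of the summed level in every pBIC10 library. No marker was at 0 in a whole group. The part of such cells in the results below was not tested. Among the other genes that the alleles act on, Il10 stood at 2.71, 1.99 and 4.77 CPM in pBIC10, 19.4, 6.84 and 8.78 CPM in pBIC, and 4.23, 7.45, 7.14 and 9.98 CPM in YC, and Trp53 at 47.4, 49.7 and 36.6 CPM in pBIC10, 23.2, 18.3 and 53.3 CPM in pBIC, and 198, 194, 198 and 176 CPM in YC. Counts over whole genes do not separate floxed exons from the rest.

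Of the 35 genes, 3 were higher and 14 lower in pBIC10 than in pBIC, at an adjusted p under 0.05. Of all 17718 genes tested, 30.7% were called in that comparison, against 17 of the 35 (48.6%). In pBIC against YC, 9 were higher and 15 lower (68.6%), beside 54.1% of all genes. In pBIC10 against YC, 3 were higher and 21 lower (68.6%), beside 51.7% of all genes. Called upward were 15.6% of all genes in pBIC10 against pBIC, 24.8% in pBIC10 against YC and 26.4% in pBIC against YC. Called downward were 15.1% of all genes in pBIC10 against pBIC, 26.9% in pBIC10 against YC and 27.7% in pBIC against YC. The median log2 fold change of the 35 genes was -0.77 in pBIC10 against pBIC, -0.72 in pBIC10 against YC and -0.36 in pBIC against YC. Over all genes tested these medians were -0.01, 0.01 and 0.02. The groups did not overlap in 19 genes of the 35 in pBIC10 against pBIC (41.8% of all genes), in 26 in pBIC10 against YC (61.0%) and in 20 in pBIC against YC (54.2%). Each pair of comparisons shares 1 group of libraries. Leaving out pBIC replicate 3 gave 4 genes higher and 21 lower in pBIC10 against pBIC, beside 29.4% of all genes called. Prdm1 is itself an engineered gene. Without it, 3 were higher and 13 lower in pBIC10 against pBIC, 3 and 20 in pBIC10 against YC, and 9 and 14 in pBIC against YC.

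**Figure D1:**
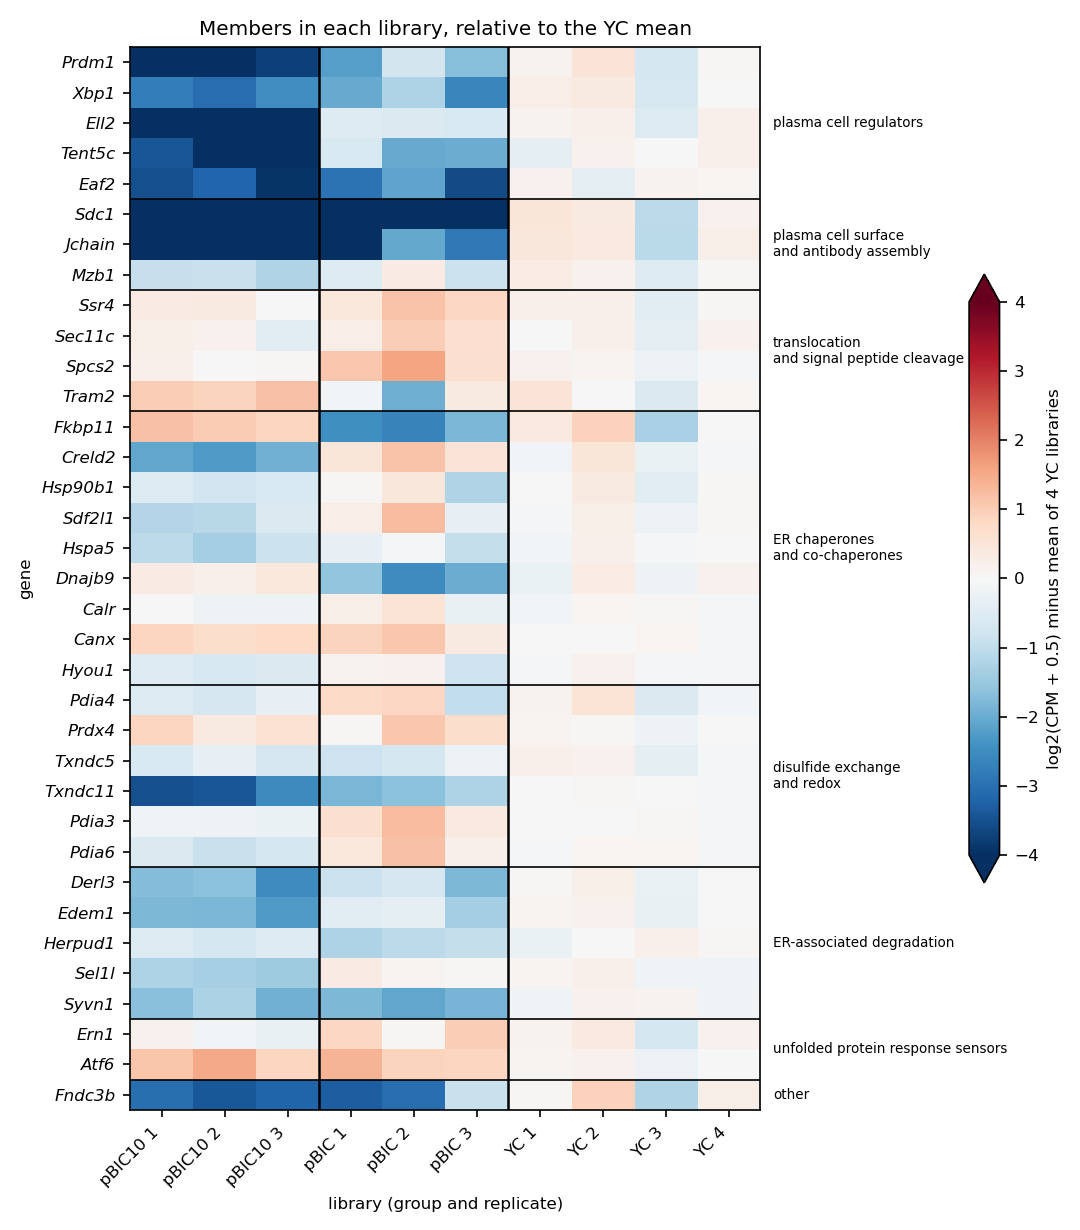
Level of each of the 35 genes (rows, grouped by role) in each of the 10 libraries (columns), as log2(CPM + 0.5) minus the mean of the 4 YC libraries, with blue lower and red higher. The regulators and the genes of antibody assembly are blue in the pBIC10 columns, while the ER chaperones and disulfide enzymes of the pBIC columns hold both colours.

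The 5 genes listed here as plasma cell regulators summed to the lowest level in pBIC10. All 5 fell in pBIC10 against YC, beside 51.7% of all genes called, and 3 of 5 fell in pBIC10 against pBIC (60.0%, beside 30.7%). In pBIC against YC 4 of 5 fell (80.0%, beside 54.1%). Their summed level was 73.3, 55.1 and 69.2 CPM in pBIC10, 313, 279 and 184 CPM in pBIC and 750.3, 851, 591 and 786 CPM in YC. In bulk RNA of sorted cells, fewer cells of a type and less RNA per cell cannot be told apart. Prdm1 stood at 0.649, 0.351 and 1.59 CPM in pBIC10, 5.63, 16.3 and 8.03 CPM in pBIC, and 30.1, 39.6, 16.8 and 28.3 CPM in YC. The 3 ranges did not touch, and YC replicate 3 was the lowest normal library. Both lymphoma groups carry the floxed allele, and Prdm1 was 11.3-fold lower in pBIC10 than in pBIC (log2 fold change -3.50 ± 0.55, adjusted p = 0.000563). It was also lower in pBIC10 than in YC (log2 fold change -5.02 ± 0.56, adjusted p = 2.22e-05) and in pBIC than in YC (log2 fold change -1.52 ± 0.45, adjusted p = 0.0134). Without pBIC10 replicate 3 Prdm1 was 19.5-fold lower in pBIC10 than in pBIC and 56-fold lower than in YC. The call in pBIC against YC was lost without pBIC replicate 3 (adjusted p = 0.0532, with a range of 0.000951 to 0.0532 over 20 alternatives).

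Ell2, an elongation factor that favours the secreted form of immunoglobulin heavy chain transcripts, had the largest change of the regulators in pBIC10 against pBIC. Its level was 1.65, 1.46 and 3.43 CPM in pBIC10, 65.2, 62 and 61.9 CPM in pBIC, and 103, 107, 64.3 and 109 CPM in YC. Of its exonic bases, 130 overlap a gene on the same strand (Gm23127) and 94 a gene on the opposite strand. The highest pBIC library was 1.05-fold above the lowest, all of them lay under 3 of the 4 YC libraries, and every pBIC10 library was far below. Ell2 was 28.5-fold lower in pBIC10 than in pBIC (log2 fold change -4.83 ± 0.32, adjusted p = 6.96e-07) and 43.4-fold lower than in YC (log2 fold change -5.44 ± 0.33, adjusted p = 1.97e-07). In pBIC against YC it did not pass (log2 fold change -0.60 ± 0.25, adjusted p = 0.0563), but it passed in 9 of 20 alternatives, among them females alone (0.00278), without pBIC10 replicate 2 (0.0482), without pBIC10 replicate 3 (0.0179) and without YC replicate 3 (0.0208), in a range of adjusted p up to 0.152. Tent5c, a poly(A) polymerase that lengthens the tails of secretory transcripts in plasma cells, stood at 22.4, 11 and 7.84 CPM in pBIC10, 161, 60.5 and 61 CPM in pBIC, and 187, 273, 245 and 283 CPM in YC. The groups did not overlap, with pBIC10 lowest. Tent5c fell in pBIC10 against pBIC (log2 fold change -2.78 ± 0.45, adjusted p = 0.000835), in pBIC10 against YC (log2 fold change -4.17 ± 0.47, adjusted p = 2.99e-05) and in pBIC against YC (log2 fold change -1.39 ± 0.41, adjusted p = 0.0128). The last call was lost with no filter, without pBIC replicate 2 or without pBIC replicate 3 (adjusted p = 0.0821, 0.0761 and 0.0653, range 0.000805 to 0.0821). Without pBIC replicate 1 Tent5c was 4.39-fold lower in pBIC10 than in pBIC and 4.07-fold lower in pBIC than in YC.

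Xbp1, which encodes the transcription factor of ER expansion, stood at 42.9, 34.9 and 52.2 CPM in pBIC10, 72.6, 125 and 47.1 CPM in pBIC, and 351, 377, 188 and 293 CPM in YC. Both lymphoma groups lay under every YC library, and pBIC replicate 3 lay inside the pBIC10 range. Xbp1 fell 6.97-fold in pBIC10 against YC (log2 fold change -2.80 ± 0.34, adjusted p = 4.32e-05) and 3.71-fold in pBIC against YC (log2 fold change -1.89 ± 0.33, adjusted p = 0.000502). Between the lymphoma groups it did not pass (log2 fold change -0.91 ± 0.34, adjusted p = 0.0580), although it passed in 6 of 20 alternatives, among them females alone (0.0416), without pBIC replicate 3 (0.0122) and without YC replicate 3 (0.0411), in a range of 0.0122 to 0.248. Eaf2, a partner of ELL elongation factors that is high in germinal centre B cells, stood at 5.60, 7.38 and 4.15 CPM in pBIC10, 8.58, 15.7 and 5.41 CPM in pBIC, and 79.2, 54, 76.4 and 73.5 CPM in YC. It was low in both lymphoma groups, which overlapped. The change was -0.79 ± 0.34 on the log2 scale in pBIC10 against pBIC (adjusted p = 0.0962), and this passed without pBIC replicate 3 (0.0161, range 0.0161 to 0.439). Eaf2 fell in pBIC10 against YC (log2 fold change -3.63 ± 0.36, adjusted p = 6.04e-06) and in pBIC against YC (log2 fold change -2.84 ± 0.34, adjusted p = 2.83e-05).

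Jchain and Sdc1 were both far lower in lymphoma cells than in YC, and of the pair only Jchain was called between the lymphoma groups. Jchain encodes the chain that joins IgM and IgA into polymers. It stood at 5.31, 3.22 and 9.07 CPM in pBIC10, 29.4, 337 and 191 CPM in pBIC, and 1897, 1847, 666 and 1629 CPM in YC. The 3 ranges were separate, and the pBIC libraries spanned 11.5-fold among themselves, with replicate 1 the lowest. Jchain was 256-fold lower in pBIC10 than in YC (log2 fold change -8.00 ± 0.89, adjusted p = 2.88e-05), 31.5-fold lower in pBIC10 than in pBIC (log2 fold change -4.98 ± 0.79, adjusted p = 0.000727) and 8.12-fold lower in pBIC than in YC (log2 fold change -3.02 ± 0.69, adjusted p = 0.00334). Without pBIC replicate 2 Jchain was 19.1-fold lower in pBIC10 than in pBIC and 13.1-fold lower in pBIC than in YC. Sdc1, which encodes the plasma cell surface proteoglycan CD138, stood at 1, 0.527 and 1.18 CPM in pBIC10, 0.536, 0.622 and 0.428 CPM in pBIC, and 36.8, 33.7, 12.4 and 29.7 CPM in YC. Here the lymphoma groups overlapped (log2 fold change 0.77 ± 0.48, adjusted p = 0.247), and each was far under YC. The changes were -4.94 ± 0.44 on the log2 scale in pBIC10 against YC (adjusted p = 2.8e-06) and -5.72 ± 0.47 in pBIC against YC (adjusted p = 1.61e-06). Mzb1 encodes an ER co-chaperone of B cells that helps IgM assemble, and 695 bases of its 1.215 kb of exon overlap another gene on the same strand (SPATA24 in GENCODE M21), so its counts are uncertain. It stood at 176, 182 and 146 CPM in pBIC10, 234, 425 and 184 CPM in pBIC, and 415, 375, 235 and 347 CPM in YC. Mzb1 fell in pBIC10 against YC (log2 fold change -1.03 ± 0.27, adjusted p = 0.00689). It was called neither in pBIC10 against pBIC (log2 fold change -0.74 ± 0.29, adjusted p = 0.0657), where the groups did not overlap, nor in pBIC against YC (log2 fold change -0.29 ± 0.27, adjusted p = 0.381). The first of these passed with no filter (0.0298) or without pBIC replicate 3 (0.0178, range 0.0178 to 0.291), and the second without pBIC replicate 2 (0.0285, range 0.0285 to 0.869).

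**Figure D2:**
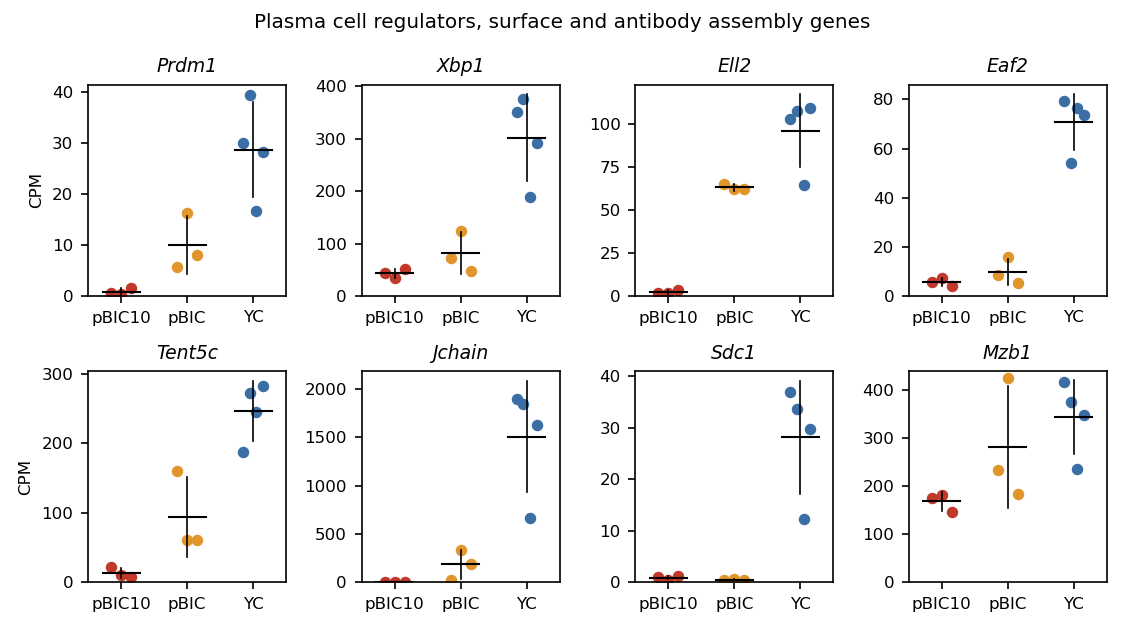
Level in CPM of the 5 regulators and of Jchain, Sdc1 and Mzb1 in each library (points), with the group mean (bar) and SD (line), for pBIC10 (n = 3), pBIC (n = 3) and YC (n = 4). Tent5c steps down from YC through pBIC to pBIC10. Ell2 is lowest in pBIC10, with pBIC and YC overlapping, while Sdc1 is near the floor in both lymphoma groups.

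For genes of entry into the ER, 3 of 4 rose and none fell in pBIC against YC (75.0% called, beside 54.1% of all genes). None was called in pBIC10 against YC (beside 51.7%). Of the 4 genes, 1 fell in pBIC10 against pBIC (25.0%, beside 30.7%). Their summed level was 358, 341 and 289.8 CPM in pBIC10, 483, 723 and 485 CPM in pBIC and 331, 331, 234 and 308 CPM in YC. Spcs2, a subunit of the signal peptidase, stood at 143, 127 and 129 CPM in pBIC10, 265, 371 and 195 CPM in pBIC, and 139.8, 134, 106 and 121 CPM in YC. All pBIC libraries lay above all others. Spcs2 was 2.08-fold lower in pBIC10 than in pBIC (log2 fold change -1.06 ± 0.21, adjusted p = 0.00245) and 2.21-fold higher in pBIC than in YC (log2 fold change 1.15 ± 0.20, adjusted p = 0.000374), with 0.09 ± 0.20 in pBIC10 against YC (adjusted p = 0.731). A near-identical copy, Spcs2-ps, was counted at 25.7, 24.4 and 21.4 CPM in pBIC10, 47, 61 and 38.2 CPM in pBIC, and 25.6, 22.8, 18.5 and 21 CPM in YC, and reads of both cannot be fully told apart. Sec11c, a catalytic subunit of the signal peptidase, stood at 95.5, 92.4 and 59.6 CPM in pBIC10, 97.8, 161 and 131 CPM in pBIC, and 83.2, 93.4, 62.2 and 92.7 CPM in YC. It rose in pBIC against YC (log2 fold change 0.65 ± 0.22, adjusted p = 0.0231). That call was lost without pBIC replicate 2, YC replicate 1 or YC replicate 3 (adjusted p = 0.0702, 0.0589 and 0.0711, range 0.0025 to 0.0711). In pBIC10 against pBIC it missed the threshold (log2 fold change -0.66 ± 0.24, adjusted p = 0.0505), and it passed in 8 of 20 alternatives, among them without pBIC replicate 1 (0.0206) and without YC replicate 3 (0.0462), in a range of 0.0177 to 0.185. Ssr4, a subunit of the translocon-associated protein complex, stood at 105, 109 and 85 CPM in pBIC10, 114, 188 and 150.3 CPM in pBIC, and 98.3, 97.1, 61.3 and 87.6 CPM in YC. It rose in pBIC against YC (log2 fold change 0.81 ± 0.21, adjusted p = 0.00505). In pBIC10 against pBIC the groups did not overlap but the call was missed (log2 fold change -0.60 ± 0.22, adjusted p = 0.0575). It was made in 5 of 20 alternatives, among them without pBIC replicate 1 (0.0195) and without YC replicate 3 (0.0411), in a range of 0.0195 to 0.178. Tram2, which aids translocation, went the other way among the lymphoma groups, at 13.8, 13.1 and 15.8 CPM in pBIC10, 6.22, 1.36 and 8.84 CPM in pBIC, and 9.86, 6.72, 4.39 and 7.13 CPM in YC. All pBIC10 libraries lay above all others, but neither pBIC10 against pBIC (log2 fold change 1.38 ± 0.50, adjusted p = 0.0537) nor pBIC10 against YC (log2 fold change 1.02 ± 0.46, adjusted p = 0.0795) passed. The first passed in 4 of 20 alternatives, among them without pBIC replicate 3 (0.0184, range 0.0167 to 0.114), and the second with those groups alone (0.00681) or without pBIC replicate 2 (0.00744, range 0.00681 to 0.286).

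Promoters of several ER genes carry a shared element, shown here because members with it did not all change alike. The ER stress element, CCAAT and CCACG with 9 bases of any letter between them, is bound by NF-Y and ATF6. It was searched on both strands in windows of 300 bases (250 before to 50 after a gene's start, RefSeq, GRCm38.p6), which were at hand for 31 of the 35 genes. A match was found in 8 of the 31 genes (25.8%), which have 37 windows, and in 0.137% of all 27025 genes with a window (39 of 32851 windows, 0.119%). The variant ER stress element II, ATTGG and CCACG with 1 base between them, was found in Herpud1 alone of the 31 (3.23%) and in 0.0444% of all genes. The core TGACGTG was found in Fkbp11, Hspa5, Txndc11 and Txndc5 (12.9% of the 31 genes, 2.22% of all genes). CCACG alone, which is part of both ER stress elements, was found in 77.4% of the 31 genes and 35.5% of all genes. Mzb1, Sec11c, Hyou1 and Atf6 had no window. The matches are printed 5′ to 3′ on the gene's strand with 5 flanking bases on each side and the match in capitals, and a site read from the opposite strand begins with CGTGG.
Hspa5, chr2:34772020-34772048: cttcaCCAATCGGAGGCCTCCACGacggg
Hsp90b1, chr10:86705633-86705661: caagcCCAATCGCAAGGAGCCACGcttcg
Hsp90b1, chr10:86705528-86705556: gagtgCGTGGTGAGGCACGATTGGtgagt
Calr, chr8:84847070-84847098: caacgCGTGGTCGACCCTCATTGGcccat
Canx, chr11:50325795-50325823: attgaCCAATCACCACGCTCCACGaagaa
Creld2, chr15:88819515-88819543: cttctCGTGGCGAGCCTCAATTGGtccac
Pdia6, chr12:17266486-17266514: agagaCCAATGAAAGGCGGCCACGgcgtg
Derl3, chr10:75893237-75893265: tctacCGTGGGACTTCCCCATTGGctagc
Syvn1, chr19:6046527-6046555: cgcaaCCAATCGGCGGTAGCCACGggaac
Herpud1, element II, chr8:94386372-94386392: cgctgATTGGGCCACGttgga

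Of the 8 genes with the ER stress element, 0 were higher and 4 lower in pBIC10 against pBIC, 3 were higher and 2 lower in pBIC against YC, and 1 was higher and 5 lower in pBIC10 against YC. Of the 23 genes with a window and no match, the counts were 3 higher and 10 lower in pBIC10 against pBIC, 4 and 13 in pBIC against YC, and 1 and 14 in pBIC10 against YC. For the same comparisons in the same order, 30.7%, 54.1% and 51.7% of all genes were called. Whether calls differ with the element was not tested. A match is a description of letters and not a measure of binding. The 250 bases before the start are given for Creld2, the chaperone gene that fell most in pBIC10 against pBIC, with its ER stress element in capitals, and for Dnajb9, a co-chaperone gene that rose there, with CCACG in capitals.
Creld2, chr15:88819396-88819645, plus strand: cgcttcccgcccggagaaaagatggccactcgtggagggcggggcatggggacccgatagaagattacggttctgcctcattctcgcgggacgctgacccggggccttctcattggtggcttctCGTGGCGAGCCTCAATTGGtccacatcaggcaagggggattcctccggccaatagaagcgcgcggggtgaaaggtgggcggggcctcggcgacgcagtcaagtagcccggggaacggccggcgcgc
Dnajb9, chr12:44210069-44210318, minus strand: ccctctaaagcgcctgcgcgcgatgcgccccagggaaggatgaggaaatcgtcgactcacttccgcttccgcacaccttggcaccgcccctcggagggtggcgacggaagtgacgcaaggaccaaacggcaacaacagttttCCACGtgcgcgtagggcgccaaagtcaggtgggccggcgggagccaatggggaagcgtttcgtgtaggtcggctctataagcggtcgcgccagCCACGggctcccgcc

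ER chaperones did not move as a block. Of 9 genes, 2 rose and 3 fell in pBIC10 against pBIC (55.6% called, beside 30.7% of all genes). In pBIC against YC 2 rose and 2 fell (44.4%, beside 54.1%), and in pBIC10 against YC 1 rose and 4 fell (55.6%, beside 51.7%). Their summed level was 3079, 2673 and 2995 CPM in pBIC10, 4016, 5054 and 2467 CPM in pBIC and 3604, 4347, 3423 and 3726 CPM in YC, and pBIC replicate 3 was the lowest of all 10 libraries. Dnajb9 encodes ERdj4, a J-domain partner of BiP that holds IRE1 inactive. It stood at 158, 144 and 169.6 CPM in pBIC10, 41.5, 21.5 and 31.4 CPM in pBIC, and 104, 154, 109 and 142 CPM in YC. The pBIC libraries lay under all others, and the pBIC10 and YC ranges overlapped. Dnajb9 was 5-fold higher in pBIC10 than in pBIC (log2 fold change 2.32 ± 0.24, adjusted p = 1.9e-05) and 4.04-fold lower in pBIC than in YC (log2 fold change -2.01 ± 0.23, adjusted p = 1.87e-05), with 0.31 ± 0.21 on the log2 scale in pBIC10 against YC (adjusted p = 0.245). Fkbp11, a prolyl isomerase of the ER, had the same order of groups, at 19.6, 17.3 and 15.7 CPM in pBIC10, 1.13, 0.904 and 1.98 CPM in pBIC, and 11.2, 16.1, 3.11 and 8.27 CPM in YC. It was 13-fold higher in pBIC10 than in pBIC (log2 fold change 3.70 ± 0.52, adjusted p = 0.000197) and 7.18-fold lower in pBIC than in YC (log2 fold change -2.84 ± 0.49, adjusted p = 0.000408). In pBIC10 against YC it did not pass (log2 fold change 0.86 ± 0.42, adjusted p = 0.105), but it did with limma-voom (0.0295), with sex as a covariate (0.0316) or without YC replicate 2 (0.0384, range 0.0295 to 0.22).

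Creld2, an ER protein induced by stress, ran opposite to Dnajb9. It stood at 23.4, 20.8 and 26.4 CPM in pBIC10, 141, 226 and 145 CPM in pBIC, and 93, 142, 83.4 and 94.8 CPM in YC. Every pBIC10 library was below every other library, and the pBIC and YC ranges touched only through YC replicate 2. Creld2 was 7.25-fold lower in pBIC10 than in pBIC (log2 fold change -2.86 ± 0.25, adjusted p = 5.46e-06), 4.39-fold lower in pBIC10 than in YC (log2 fold change -2.13 ± 0.24, adjusted p = 1.37e-05) and 1.65-fold higher in pBIC than in YC (log2 fold change 0.72 ± 0.22, adjusted p = 0.0129). Sdf2l1, a partner of BiP and its J-domain proteins, stood at 30.8, 32.3 and 46.6 CPM in pBIC10, 83.4, 166 and 55.2 CPM in pBIC, and 67.8, 81.5, 59.9 and 72 CPM in YC. Sdf2l1 fell in pBIC10 against pBIC (log2 fold change -1.47 ± 0.33, adjusted p = 0.00539) and in pBIC10 against YC (log2 fold change -0.94 ± 0.31, adjusted p = 0.0237). The call in pBIC10 against YC was lost without pBIC10 replicate 1, pBIC10 replicate 2 or YC replicate 2 (adjusted p = 0.0902, 0.0846 and 0.0533, range 0.000951 to 0.0902). In pBIC against YC it did not pass (log2 fold change 0.53 ± 0.30, adjusted p = 0.155), except without pBIC replicate 3 (0.0171, range 0.0171 to 0.897).

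Hspa5 encodes BiP, the central ER chaperone and a repressor of all 3 sensors. It stood at 439, 355 and 499 CPM in pBIC10, 713, 878 and 471 CPM in pBIC, and 846, 1034, 862 and 889.7 CPM in YC. It fell to 431 ± 72.3 CPM in pBIC10, against 687 ± 205 CPM in pBIC and 908 ± 86.3 CPM in YC (mean ± SD, n = 3, 3 and 4). The change was -1.07 ± 0.21 in pBIC10 against YC (adjusted p = 0.000792) and -0.67 ± 0.22 in pBIC10 against pBIC (adjusted p = 0.0305), where the groups overlapped through pBIC replicate 3. The call in pBIC10 against pBIC was lost with those groups alone (0.0785), and without pBIC10 replicate 1 or 2 or pBIC replicate 1 or 2 (adjusted p = 0.0784, 0.134, 0.0617 and 0.107, range 0.00456 to 0.134). In pBIC against YC it was not called (log2 fold change -0.40 ± 0.20, adjusted p = 0.110), except without pBIC replicate 2 (0.0381, range 0.0381 to 0.409). Hyou1, which exchanges nucleotide on BiP, stood at 149, 138 and 142 CPM in pBIC10, 237, 242 and 119 CPM in pBIC, and 206, 240.4, 203 and 205 CPM in YC. Hyou1 fell in pBIC10 against YC alone (log2 fold change -0.58 ± 0.21, adjusted p = 0.0363). This call was lost with females alone (0.112) and in the fits that left out any 1 of the pBIC10 or YC libraries (adjusted p = 0.0515 to 0.105, range 0.00106 to 0.112 over 20 alternatives), and in pBIC10 against pBIC it passed without pBIC replicate 3 (0.00403, range 0.00403 to 0.311).

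Canx and Calr encode the lectin chaperones calnexin and calreticulin, which share clients, and their transcripts differed. Canx stood at 615, 555 and 598 CPM in pBIC10, 633, 725 and 434 CPM in pBIC, and 343, 338, 358 and 327 CPM in YC. All 6 lymphoma libraries lay above the 4 YC libraries, whose highest was 1.1-fold above the lowest. Canx rose in pBIC10 against YC (log2 fold change 0.79 ± 0.17, adjusted p = 0.00161) and in pBIC against YC (log2 fold change 0.81 ± 0.17, adjusted p = 0.00136), with -0.02 ± 0.18 in pBIC10 against pBIC (adjusted p = 0.952). Calr stood at 912, 776 and 790.3 CPM in pBIC10, 1055, 1311 and 743 CPM in pBIC, and 844, 946, 943 and 883 CPM in YC and was called in no comparison, apart from pBIC10 against pBIC without pBIC replicate 3 (0.038, range 0.038 to 0.559). Hsp90b1, which encodes GRP94, stood at 732, 634 and 708 CPM in pBIC10, 1109.5, 1483 and 466 CPM in pBIC, and 1089, 1394, 802 and 1104 CPM in YC, and its counts are uncertain, since 415 of its exonic bases overlap a gene on the opposite strand and 217 overlap genes on the same strand (Gm15344 and Gm25745). It was called in none of the 3 comparisons. Without pBIC replicate 3 it passed in pBIC10 against pBIC (0.00968, range 0.00968 to 0.66) and in pBIC10 against YC (0.0114, range 0.00664 to 0.22), and it also passed in pBIC10 against YC with those groups alone (0.00664).

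**Figure D3:**
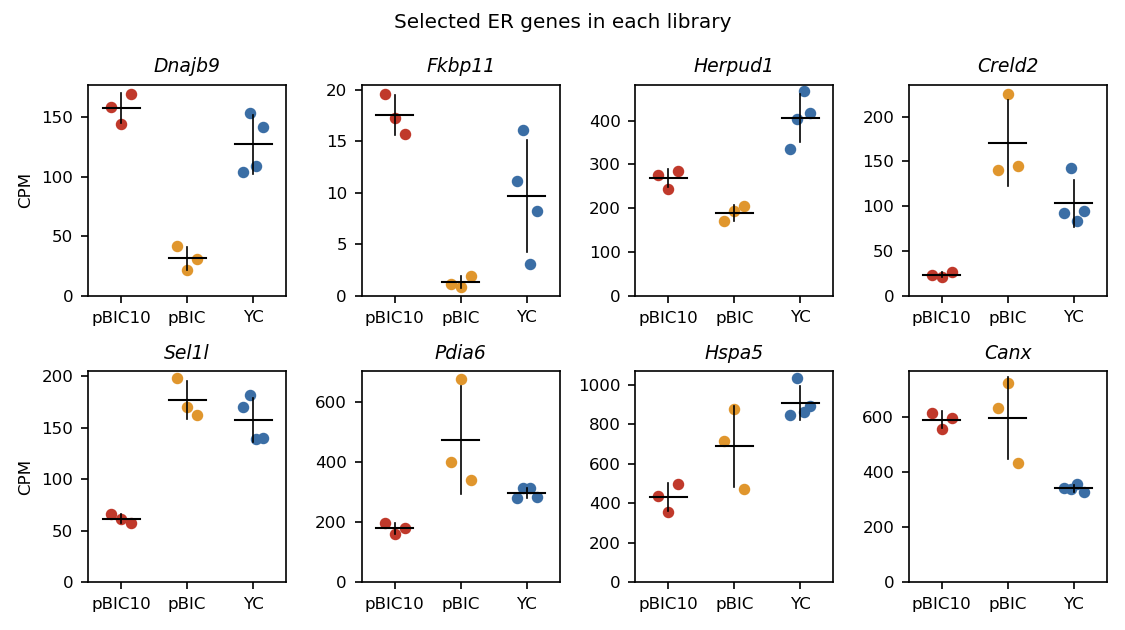
Level in CPM of 8 ER genes in each library (points), with the group mean (bar) and SD (line), for pBIC10 (n = 3), pBIC (n = 3) and YC (n = 4). Dnajb9 and Fkbp11 are lowest in pBIC, Creld2, Sel1l and Pdia6 are lowest in pBIC10, and Canx is higher in both lymphoma groups than in YC.

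Among the disulfide and redox enzymes, 3 of 6 fell and none rose in pBIC10 against pBIC (50% called, beside 30.7% of all genes). In pBIC10 against YC 1 rose and 3 fell (66.7%, beside 51.7%). In pBIC against YC 3 rose and 2 fell (83.3%, beside 54.1%). Their summed level was 1122, 1099 and 1105 CPM in pBIC10, 1870.3, 2636 and 1569 CPM in pBIC and 1704, 1823, 1511 and 1569 CPM in YC. Pdia6, a disulfide isomerase whose promoter holds the ER stress element, stood at 198, 162 and 182 CPM in pBIC10, 400.2, 677 and 340.4 CPM in pBIC, and 282, 313, 313 and 286 CPM in YC. The 3 ranges were separate, with pBIC highest and pBIC10 lowest. Pdia6 was 2.62-fold lower in pBIC10 than in pBIC (log2 fold change -1.39 ± 0.23, adjusted p = 0.000540), lower in pBIC10 than in YC (log2 fold change -0.72 ± 0.21, adjusted p = 0.0113) and higher in pBIC than in YC (log2 fold change 0.66 ± 0.21, adjusted p = 0.0153). The call in pBIC against YC was lost without pBIC replicate 2 (0.0502, range 0.00139 to 0.0502) and the call in pBIC10 against YC with females alone (0.061) or without pBIC10 replicate 2 (0.0528, range 0.000348 to 0.061). Pdia3, the isomerase that works with calnexin and calreticulin, stood at 441, 429 and 414 CPM in pBIC10, 772, 1174 and 656 CPM in pBIC, and 494, 501, 515 and 478 CPM in YC. It was 2.03-fold lower in pBIC10 than in pBIC (log2 fold change -1.02 ± 0.19, adjusted p = 0.00165) and 1.74-fold higher in pBIC than in YC (log2 fold change 0.80 ± 0.18, adjusted p = 0.00221). In pBIC10 against YC the groups did not overlap, but the change of -0.22 ± 0.18 was not called (adjusted p = 0.333).

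Txndc11, a membrane-bound thioredoxin-like protein of the ER, fell in every comparison. It stood at 16.6, 18 and 33.6 CPM in pBIC10, 54.8, 62.8 and 83.9 CPM in pBIC, and 195, 205, 200.3 and 189 CPM in YC. The highest YC library was 1.09-fold above the lowest, and the 3 ranges were separate. The log2 fold changes were -1.56 ± 0.25 in pBIC10 against pBIC (adjusted p = 0.000540), -1.55 ± 0.24 in pBIC against YC (adjusted p = 0.000167) and -3.11 ± 0.26 in pBIC10 against YC (adjusted p = 1.71e-06). Txndc5, an ER thioredoxin whose exons overlap opposite-strand genes over 535 bases, stood at 243, 301 and 235 CPM in pBIC10, 209, 230.4 and 315 CPM in pBIC, and 434, 421, 294 and 365 CPM in YC. It fell in pBIC against YC (log2 fold change -0.59 ± 0.19, adjusted p = 0.0196) and in pBIC10 against YC (log2 fold change -0.54 ± 0.19, adjusted p = 0.0295). The first call was lost without pBIC replicate 1 or 2 (adjusted p = 0.0666 and 0.0862, range 0.00615 to 0.0862), and the second with females alone (0.0588) or without pBIC10 replicate 1 or 3 or YC replicate 1 or 2 (adjusted p = 0.0666 to 0.103, range 0.012 to 0.103). Prdx4, the ER peroxiredoxin that uses hydrogen peroxide to make disulfides, stood at 58.7, 41.8 and 48.9 CPM in pBIC10, 33, 67.8 and 52.7 CPM in pBIC, and 34.9, 33.2, 28.1 and 32.8 CPM in YC. It rose in pBIC against YC (log2 fold change 0.67 ± 0.22, adjusted p = 0.0220) and in pBIC10 against YC (log2 fold change 0.63 ± 0.22, adjusted p = 0.0304). The first call was lost with females alone (0.0638) or without pBIC replicate 2, YC replicate 2 or YC replicate 3 (adjusted p = 0.0819, 0.051 and 0.0628, range 0.00174 to 0.0819). The second was lost with females alone (0.114) or without pBIC10 replicate 1 or 3 or YC replicate 2, 3 or 4 (adjusted p = 0.0529 to 0.123, range 0.00486 to 0.123). Pdia4, another isomerase, stood at 164, 148 and 191 CPM in pBIC10, 402, 423 and 121 CPM in pBIC, and 262, 349, 160.4 and 219 CPM in YC and was called nowhere, except without pBIC replicate 3, when it passed in pBIC10 against pBIC (0.00314, range 0.00314 to 0.321) and in pBIC against YC (0.0256, range 0.0256 to 0.82).

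The 5 members of ER-associated degradation were lower in both lymphoma groups than in YC, Sel1l in pBIC excepted. The 17 other genes of that process, given below, did not share this in pBIC against YC (3 rose and 2 fell). All 5 members fell in pBIC10 against YC, beside 51.7% of all genes called. In pBIC against YC 4 of the 5 members fell (80.0%, beside 54.1%). In pBIC10 against pBIC 3 of them fell and 1 rose (80.0%, beside 30.7%). Their summed level was 749, 806 and 667 CPM in pBIC10, 933, 899 and 775 CPM in pBIC and 1768, 2076, 1953 and 1808 CPM in YC, so all 6 lymphoma libraries were under all YC libraries. Syvn1 and Sel1l encode the ubiquitin ligase HRD1 and its adaptor, and their transcripts did not follow each other. Syvn1 stood at 280.1, 371 and 236 CPM in pBIC10, 255, 209 and 245 CPM in pBIC, and 789.6, 990.5, 985 and 799.8 CPM in YC. It was low in both lymphoma groups, which overlapped, and fell 3.01-fold in pBIC10 against YC (log2 fold change -1.59 ± 0.19, adjusted p = 1.96e-05) and 3.77-fold in pBIC against YC (log2 fold change -1.92 ± 0.19, adjusted p = 6.19e-06). Between the lymphoma groups its change was 0.32 ± 0.19 (adjusted p = 0.213). Sel1l stood at 66.1, 61.8 and 57.9 CPM in pBIC10, 198, 170.3 and 163 CPM in pBIC, and 170.0, 182, 139 and 140.1 CPM in YC. The pBIC10 libraries alone were low, and Sel1l fell 2.86-fold in pBIC10 against pBIC (log2 fold change -1.52 ± 0.17, adjusted p = 3.02e-05) and 2.55-fold in pBIC10 against YC (log2 fold change -1.35 ± 0.16, adjusted p = 2.2e-05), with 0.17 ± 0.15 in pBIC against YC (adjusted p = 0.377).

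Edem1, which hands mannose-trimmed glycoproteins to degradation, stood at 98.9, 96.3 and 71.8 CPM in pBIC10, 254, 265 and 133 CPM in pBIC, and 372, 383, 279 and 351 CPM in YC. The 3 ranges were separate and stepped down in the order YC, pBIC, pBIC10. Edem1 fell in pBIC10 against pBIC (log2 fold change -1.29 ± 0.25, adjusted p = 0.00166), in pBIC10 against YC (log2 fold change -1.96 ± 0.24, adjusted p = 3.08e-05) and in pBIC against YC (log2 fold change -0.67 ± 0.23, adjusted p = 0.0250). The last call was lost without pBIC replicate 3 or YC replicate 2 (adjusted p = 0.0873 and 0.0531, range 0.00975 to 0.0873). Derl3, a derlin of the retrotranslocation channel, stood at 29.7, 31.9 and 17 CPM in pBIC10, 54.8, 62.5 and 28.3 CPM in pBIC, and 102, 116, 82.3 and 100.4 CPM in YC. Derl3 fell in pBIC10 against YC (log2 fold change -1.94 ± 0.29, adjusted p = 0.000130) and in pBIC against YC (log2 fold change -1.05 ± 0.28, adjusted p = 0.00646). The fall in pBIC10 against pBIC (log2 fold change -0.89 ± 0.29, adjusted p = 0.0343), where the ranges overlapped, was lost with sex as a covariate (0.0563), with females alone (0.124) and with those groups alone (0.0883). It was also lost without pBIC10 replicate 1 or 3, pBIC replicate 1 or 2 or YC replicate 1 (adjusted p = 0.0516 to 0.121, range 0.00416 to 0.124). Herpud1, which assembles the HRD1 complex, stood at 275, 245 and 284 CPM in pBIC10, 171, 193 and 206 CPM in pBIC, and 335, 404, 468 and 416 CPM in YC. The ranges were separate with pBIC lowest. Herpud1 fell in pBIC10 against YC (log2 fold change -0.60 ± 0.15, adjusted p = 0.00564) and in pBIC against YC (log2 fold change -1.10 ± 0.16, adjusted p = 9.51e-05). It was 1.41-fold higher in pBIC10 than in pBIC (log2 fold change 0.50 ± 0.16, adjusted p = 0.0336), a call lost with sex as a covariate (0.0783), with females alone (0.0974), with those groups alone (0.0664) and with no filter (0.0762). It was also lost without pBIC10 replicate 1 or 3, pBIC replicate 1 or 2 or YC replicate 4 (adjusted p = 0.0526 to 0.0877, range 0.0134 to 0.0974).

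**Figure D4:**
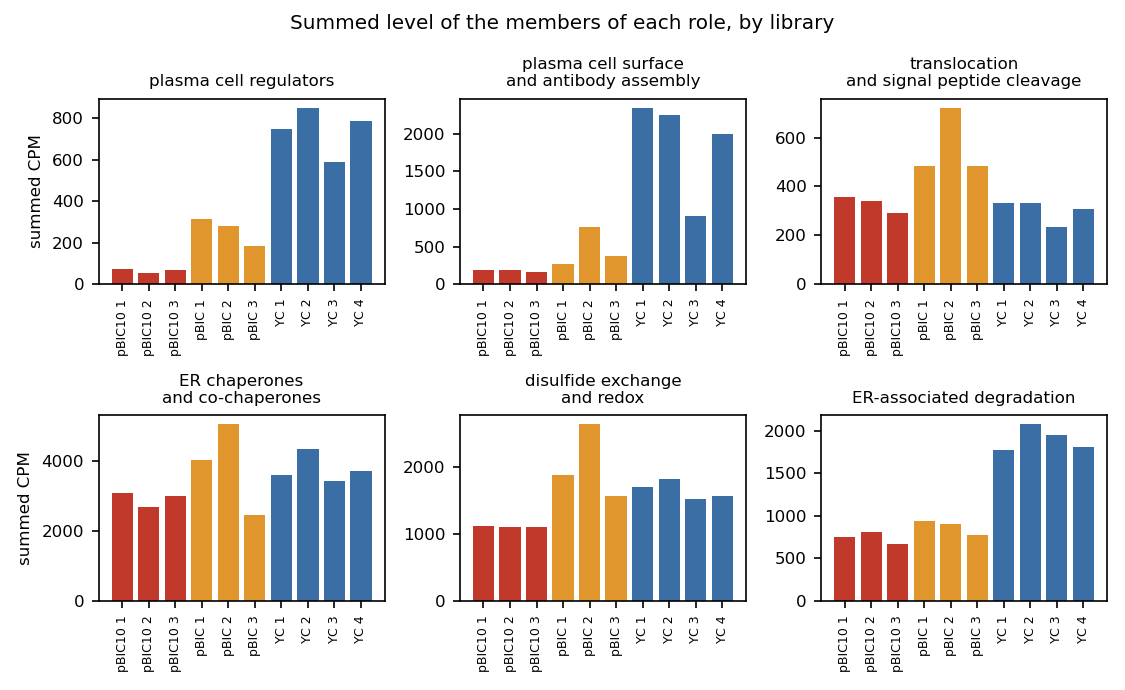
Summed CPM of the members of each of 6 roles in each library (bars from 0), for pBIC10, pBIC and YC. Bars of the plasma cell regulators and of ER-associated degradation are lower in all 6 lymphoma libraries than in the YC libraries, while those of translocation are highest in pBIC.

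Of the sensors, Atf6, a membrane-bound transcription factor freed by cleavage, stood at 193, 257 and 162 CPM in pBIC10, 229, 163 and 162 CPM in pBIC, and 96.1, 98.8, 74.6 and 86.8 CPM in YC. All 6 lymphoma libraries lay above all YC libraries. Atf6 was 2.29-fold higher in pBIC10 than in YC (log2 fold change 1.19 ± 0.19, adjusted p = 0.000225) and 2.07-fold higher in pBIC than in YC (log2 fold change 1.05 ± 0.19, adjusted p = 0.000577), with 0.14 ± 0.21 in pBIC10 against pBIC (adjusted p = 0.637). Ern1, which encodes IRE1, stood at 15.3, 12.7 and 11 CPM in pBIC10, 24.8, 14.2 and 27.5 CPM in pBIC, and 15, 18.1, 8.28 and 15.3 CPM in YC and was called in no comparison. Without pBIC replicate 2 it passed in pBIC10 against pBIC (0.0231, range 0.0231 to 0.211) and in pBIC against YC (0.0144, range 0.0144 to 0.233), and it also passed in pBIC against YC with no filter (0.0338). Fndc3b, which has no role assigned here, stood at 0.295, 0.117 and 0.205 CPM in pBIC10, 0.161, 0.283 and 3 CPM in pBIC, and 6.23, 11.7, 2.33 and 7.13 CPM in YC. The pBIC10 libraries held 5, 2 and 4 counts. Fndc3b fell in pBIC10 against YC (log2 fold change -5.0 ± 1.03, adjusted p = 0.00167) and in pBIC against YC (log2 fold change -2.56 ± 0.85, adjusted p = 0.0231), where pBIC replicate 3 overlapped the YC libraries. The call in pBIC against YC was lost with no filter (0.0874) or without pBIC replicate 1, pBIC replicate 2 or YC replicate 2 (adjusted p = 0.0524, 0.0813 and 0.0561, range 0.000239 to 0.0874). Without pBIC replicate 3 its log2 fold change was -4.90. In pBIC10 against pBIC it was not called (log2 fold change -2.44 ± 1.05, adjusted p = 0.0992), except with DESeq2 (0.0275) or without pBIC replicate 1 (0.0333, range 0.0275 to 0.948).

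**Figure D5:**
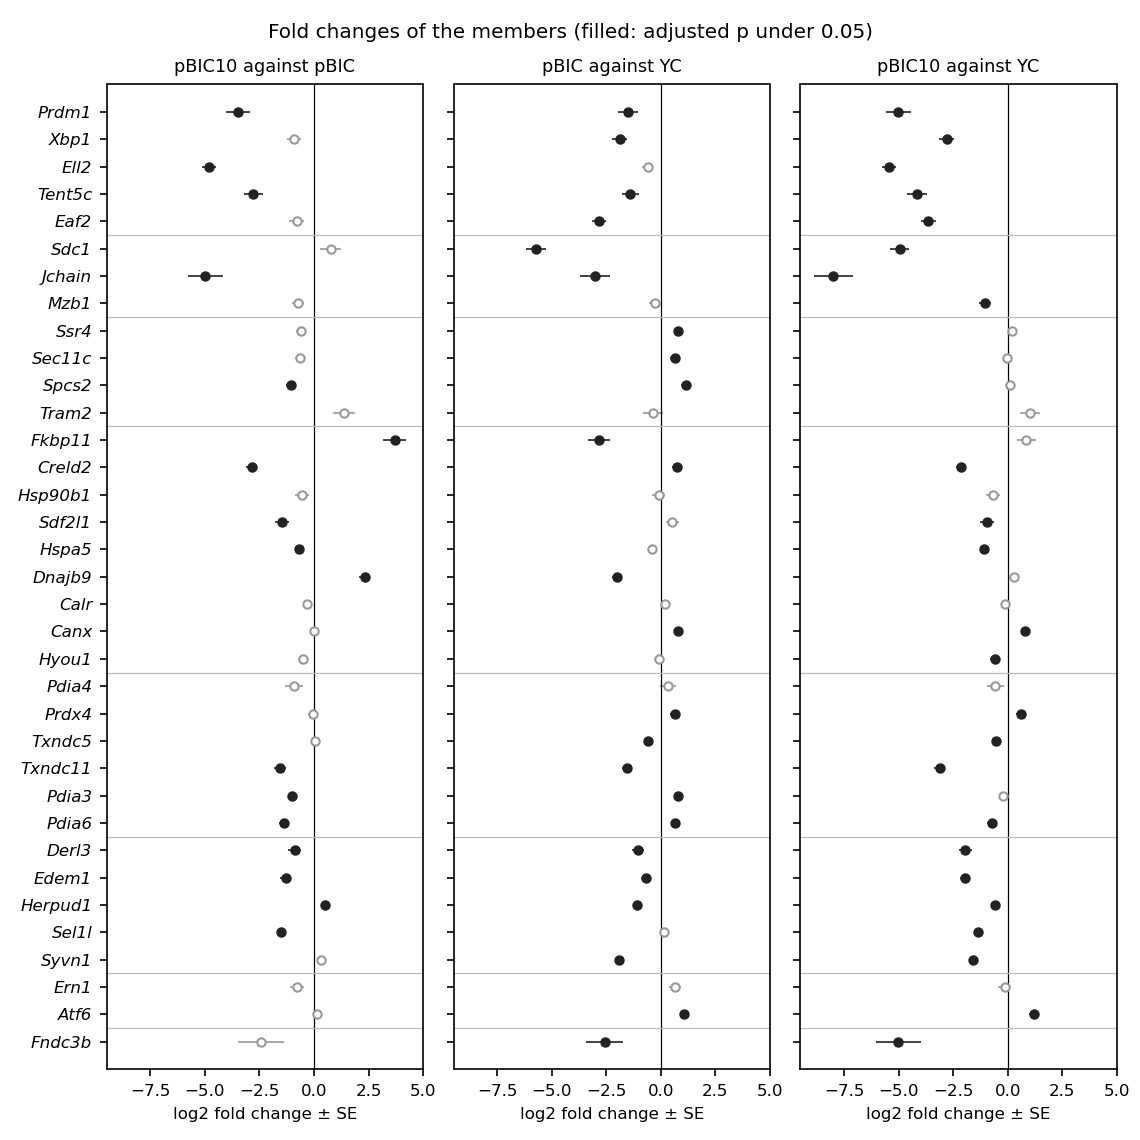
Log2 fold change ± SE of each of the 35 genes in the 3 comparisons, with filled points for an adjusted p under 0.05. Points of the plasma cell regulators lie left of 0 in all 3 panels, while those of the chaperones scatter to both sides in pBIC10 against pBIC.

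Per kb of exon (union of exons in GENCODE M21), the highest levels in YC were of Jchain (600 CPM per kb), Calr (314 CPM per kb) and Mzb1 (282 CPM per kb). In pBIC10 Calr was the highest at 287 CPM per kb, Hsp90b1 followed at 171.5 CPM per kb, and Jchain ranked 27 of 35 at 2.33 CPM per kb. In pBIC Calr again led at 360 CPM per kb, ahead of Pdia3 at 276 CPM per kb, and Jchain ranked 12 of 35. Over libraries, Calr ran from 258 to 455 CPM per kb and Pdia3 from 209 to 374 CPM per kb in pBIC, so the leading pair overlapped. In YC Jchain ran from 264 to 754 CPM per kb, Calr from 293 to 329 CPM per kb and Mzb1 from 193 to 341 CPM per kb, so the order of the leading 3 was not beyond the spread over libraries. Dnajb9 ranked 9 in pBIC10, 26 in pBIC and 18 in YC.

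Within groups, 1 library often carried the extreme. YC replicate 3 (male) had the lowest level of 24 of the 35 genes in its group (68.6%, beside 26.5% of all genes), and YC replicate 2 the highest of 20 (57.1%, beside 24.9%). Immunoglobulin constant genes summed to 38810.0, 43966, 17464 and 31243 CPM in YC, so the same library was lowest there too. In pBIC, replicate 2 was highest in 22 genes (62.9%, beside 37.1%) and replicate 3 lowest in 19 (54.3%, beside 31.7%). In pBIC10, replicate 2 was lowest in 19 genes (54.3%, beside 32.4%). The median ratio of highest to lowest library over the 35 genes was 1.38 in pBIC10, 1.93 in pBIC and 1.48 in YC, beside 1.39, 1.73 and 1.49 over all genes tested.

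Other genes of the pathway, in lists described by counts with no test of the list, were read beside the 35. Their shares called stand beside 30.7% of all genes in pBIC10 against pBIC, 51.7% in pBIC10 against YC and 54.1% in pBIC against YC. Of 21 other ER folding enzymes tested, 0 rose and 11 fell in pBIC10 against pBIC (52.4% called), 7 rose and 2 fell in pBIC against YC (42.9%), and 2 rose and 7 fell in pBIC10 against YC (42.9%). Pdia5, a disulfide isomerase, stood at 0.590, 0.644 and 2.56 CPM in pBIC10, 8.15, 29 and 23.2 CPM in pBIC, and 0.890, 0.573, 0.707 and 0.499 CPM in YC, so pBIC lay above both other groups. It fell in pBIC10 against pBIC (log2 fold change -3.97 ± 0.60, adjusted p = 0.000375) and rose in pBIC against YC (log2 fold change 4.90 ± 0.58, adjusted p = 2.76e-05). Without pBIC10 replicate 3 the change in pBIC10 against pBIC was -4.99 on the log2 scale. P4hb, the main disulfide isomerase, also fell in pBIC10 against pBIC (log2 fold change -0.89 ± 0.16, adjusted p = 0.00107) and rose in pBIC against YC (log2 fold change 1.08 ± 0.15, adjusted p = 6.8e-05). The oxidases that recharge isomerases split, since Ero1a rose (log2 fold change 1.07 ± 0.15, adjusted p = 7.03e-05) and Ero1b fell (log2 fold change -1.91 ± 0.22, adjusted p = 2.06e-05) in pBIC10 against YC. The same pair changed by 1.57 ± 0.15 and -2.27 ± 0.23 on the log2 scale in pBIC against YC (adjusted p = 4.57e-06 and 7.32e-06). Dnajb11, a J-domain partner of BiP, fell in pBIC10 against pBIC (log2 fold change -1.14 ± 0.17, adjusted p = 0.000232) and in pBIC10 against YC (log2 fold change -1.25 ± 0.16, adjusted p = 3.73e-05).

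Of 20 genes of the Sec61 channel and signal recognition, 1 rose and 5 fell in pBIC10 against pBIC (30.0% called), 11 rose and 0 fell in pBIC against YC (55.0%), and 9 rose and 1 fell in pBIC10 against YC (50%). All 3 shares were near those of all genes. Sec61a1, the channel's core, fell in pBIC10 against pBIC (log2 fold change -0.82 ± 0.15, adjusted p = 0.000974), and Ssr1 rose in pBIC against YC (log2 fold change 1.13 ± 0.15, adjusted p = 5.98e-05). Of 12 oligosaccharyltransferase genes, 0 rose and 3 fell in pBIC10 against pBIC (25.0% called), 6 rose and 0 fell in pBIC against YC (50%), and 2 rose and 1 fell in pBIC10 against YC (25.0%). All 3 shares were under those of all genes. Stt3a, a catalytic subunit, changed by -0.66 ± 0.17 in pBIC10 against pBIC and by 1.08 ± 0.16 in pBIC against YC (log2 scale, adjusted p = 0.0123 and 0.000138), and the call in pBIC10 against pBIC was lost with females alone (0.0525) or without pBIC10 replicate 2 (0.0545, range 0.00389 to 0.0545). Of 17 other ER-associated degradation genes, 1 rose and 8 fell in pBIC10 against pBIC (52.9% called), 3 rose and 2 fell in pBIC against YC (29.4%), and 1 rose and 7 fell in pBIC10 against YC (47.1%). Of 26 genes of ER to Golgi transport, 4 rose and 7 fell in pBIC10 against pBIC (42.3% called), 10 rose and 6 fell in pBIC against YC (61.5%), and 5 rose and 6 fell in pBIC10 against YC (42.3%). Creb3l2, a transcription factor of secretory pathway genes, stood at 1.83, 0.996 and 3.79 CPM in pBIC10, 23.7, 17.4 and 18.9 CPM in pBIC, and 25.1, 30.8, 7.64 and 18.6 CPM in YC. It fell in pBIC10 against pBIC (log2 fold change -3.16 ± 0.53, adjusted p = 0.000861) and in pBIC10 against YC (log2 fold change -3.20 ± 0.52, adjusted p = 0.000294). Without pBIC10 replicate 3 these changes were -3.80 and -3.84.

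Downstream of PERK, 10 genes of the ATF4 and CHOP arm were tested, and transcript levels do not measure PERK activity. In pBIC10 against pBIC 0 rose and 3 fell (30.0% called), in pBIC against YC 1 rose and 4 fell (50%), and in pBIC10 against YC 1 rose and 7 fell (80.0%). Only the last share lay above that of all genes. Eif2ak3, which encodes PERK, stood at 33.3, 33.6 and 36.3 CPM in pBIC10, 32.4, 21 and 38.9 CPM in pBIC, and 136, 121, 214 and 139.8 CPM in YC, low in both lymphoma groups. It fell in pBIC10 against YC (log2 fold change -2.15 ± 0.25, adjusted p = 1.7e-05) and in pBIC against YC (log2 fold change -2.31 ± 0.25, adjusted p = 1.14e-05). Trib3, a pseudokinase induced by this arm, was low in pBIC10 alone, at 0.413, 0.117 and 0.410 CPM in pBIC10, 3.38, 7.63 and 1.18 CPM in pBIC, and 4.15, 3.11, 5.23 and 3.57 CPM in YC (log2 fold change -3.65 ± 0.67, adjusted p = 0.00131 in pBIC10 against pBIC, or -2.85 on the log2 scale without pBIC replicate 2).

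Of 19 other plasma cell genes, 5 rose and 1 fell in pBIC10 against pBIC (31.6% called). In pBIC10 against YC 4 rose and 5 fell (47.4%), and in pBIC against YC 3 rose and 10 fell (68.4%). Bhlha15, which encodes the secretory cell factor MIST1, stood at 2.12, 1.35 and 1.23 CPM in pBIC10, 0.536, 1.07 and 1.45 CPM in pBIC, and 29.5, 31.9, 7.71 and 19.2 CPM in YC. It fell in pBIC10 against YC (log2 fold change -3.81 ± 0.51, adjusted p = 6.44e-05) and in pBIC against YC (log2 fold change -4.43 ± 0.54, adjusted p = 3.04e-05). Cxcr4, a chemokine receptor that plasma cells and B cells both use, stood at 320.1, 285 and 567 CPM in pBIC10, 86.8, 34.9 and 98.6 CPM in pBIC, and 259, 390.0, 316 and 248 CPM in YC and rose in pBIC10 against pBIC (log2 fold change 2.41 ± 0.38, adjusted p = 0.000672). Of 12 B cell genes that oppose plasma cell differentiation, 6 rose and 2 fell in pBIC10 against pBIC (66.7% called), 2 rose and 9 fell in pBIC against YC (91.7%), and 2 rose and 8 fell in pBIC10 against YC (83.3%). Those that fell in pBIC10 against pBIC were Irf8 (log2 fold change -1.38 ± 0.30, adjusted p = 0.00428) and Mitf (4.005-fold, adjusted p = 0.00868). Bcl6 was not called there (log2 fold change -0.37 ± 0.35, adjusted p = 0.451). It was 48.5-fold lower in pBIC10 than in YC (adjusted p = 6.76e-07) and 37.4-fold lower in pBIC than in YC (adjusted p = 1.02e-06). Bach2, a repressor of Prdm1, stood at 67.8, 82.1 and 97.4 CPM in pBIC10, 21.9, 6.84 and 8.35 CPM in pBIC, and 261, 237, 263 and 228 CPM in YC. It rose in pBIC10 against pBIC (log2 fold change 2.74 ± 0.36, adjusted p = 0.000163) and fell in pBIC10 against YC (log2 fold change -1.59 ± 0.33, adjusted p = 0.00159) and in pBIC against YC (log2 fold change -4.32 ± 0.38, adjusted p = 4.33e-06). Ebf1, a factor of B cell identity, stood at 97.7, 109.7 and 82.2 CPM in pBIC10, 12.1, 4.07 and 2.14 CPM in pBIC, and 339, 461, 425 and 352 CPM in YC and rose in pBIC10 against pBIC (log2 fold change 3.98 ± 0.49, adjusted p = 0.000120). Without pBIC replicate 1 the change in pBIC10 against pBIC was 3.45 for Bach2 and 4.97 for Ebf1, and that of Bach2 in pBIC against YC was -5.03 (log2 scale).

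Of 12 immunoglobulin constant genes, 5 rose and 5 fell in pBIC10 against pBIC (83.3% called), 2 rose and 7 fell in pBIC against YC (75.0%), and 1 rose and 8 fell in pBIC10 against YC (75.0%). Their summed level was 9403, 9071 and 7990.3 CPM in pBIC10 and 6728, 7397 and 8608 CPM in pBIC, under every YC library. Ighm, the IgM heavy chain gene, stood at 7530.3, 7219 and 6293 CPM in pBIC10, 442, 344 and 422 CPM in pBIC, and 9020.0, 11563, 7249.8 and 6353 CPM in YC, while Igkc, the kappa light chain gene, stood at 233, 269 and 296 CPM in pBIC10, 2365, 3281 and 3077 CPM in pBIC, and 11574, 12150.0, 4552 and 8877 CPM in YC. Counts per gene do not separate membrane from secreted heavy chain transcripts.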

How the data were processed

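Poly(A) RNA of sorted, 7AAD-negative splenic B cells was sequenced from 1 end over 50 nt, per the labels. Raw counts of reads per gene were deposited, made by the authors with featureCounts on the genome GRCm39, after FastQC, per the submitters' processing notes. The aligner, annotation and strand setting were not given in the sources used here. Each of the 10 columns matched a sample, with 0 left over.

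Genes were filtered by filterByExpr of edgeR 4.0.16 (R 4.3.3), scaled with TMM factors and fitted with a mean for each of the 3 groups over all 10 libraries (robust quasi-likelihood F test, two-sided). Adjusted p-values are Benjamini-Hochberg values over all 17718 genes tested in a comparison. The SE is the log2 fold change divided by the square root of F. The biological coefficient of variation was 0.289 with 7 residual degrees of freedom. Alternatives were RLE scaling, library totals, DESeq2 1.42.0, limma-voom (limma 3.58.1), no filter, 1 CPM in 3 libraries, 2 groups only, sex as a covariate, females alone, leaving out 665 immunoglobulin and T cell receptor genes, and leaving out each library. The fit was tested on simulated data.

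The 35 genes and the lists were chosen with earlier results of these data known. All 35 are named with their calls, and from the other lists the called genes of smallest adjusted p, up to 4 a direction and comparison, could be named, of which the text gives a part, picked after values were seen. Ighm and Igkc are given for their level, and both met that rule. Promoter windows come from RefSeq (GRCm38.p6) and exon lengths from GENCODE M21, both an earlier build than the counts, and were joined by symbol. Protein sequences were not analysed here.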

Additional observations from a re-analysis of the deposited data

Results flagged for a closer look

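Ell2 stood at 64.3 CPM in YC replicate 3, far from the other 3 YC libraries, with a gap to the nearest library of 0.859 of the group's range. Hyou1 stood at 240.4 CPM in YC replicate 2, with a gap of 0.913 of the range. Chance alone marks about 1 in 20 groups of 4 libraries in this way, and all 35 genes were read in YC. Both lymphoma groups were too small to be read like this.

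Creld2 and Pdia6 were called in opposite directions against YC, lower in pBIC10 and higher in pBIC. The test of that difference is the comparison of pBIC10 with pBIC, in which the log2 fold change was -2.86 for Creld2 and -1.39 for Pdia6, both past the threshold.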

How the results depend on the processing

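Over the 20 alternatives, 14 of 17 called genes of the programme kept their call in every one in pBIC10 against pBIC, 19 of 24 in pBIC10 against YC and 16 of 24 in pBIC against YC, and no called gene changed direction. Of the genes not called, 12 of 18 passed under at least 1 alternative in pBIC10 against pBIC, 3 of 11 in pBIC10 against YC and 6 of 11 in pBIC against YC. Leaving out each library gave 2 to 4 genes higher and 12 to 21 lower in pBIC10 against pBIC, 7 to 11 higher and 12 to 16 lower in pBIC against YC, and 2 to 4 higher and 18 to 22 lower in pBIC10 against YC. Shares of all genes called in those fits ran from 20.9 to 32.7%, 47.8 to 53.7% and 43.2 to 54.5%, in the same order. The cause of these shifts was not tested. Without a filter 34268 genes were tested. Their median shifted to -0.26 in pBIC10 against YC and -0.33 in pBIC against YC, and stood at 0 between the lymphoma groups. Why the median shifted was not tested. With females alone, 2 genes were higher and 14 lower in pBIC10 against pBIC, beside 25.0% of all genes called. In that fit 8 were higher and 16 lower in pBIC against YC (49.5%), and 2 and 18 in pBIC10 against YC (41.2%). Prdm1, Sdc1, Ell2, Fkbp11, Tram2 and Fndc3b had libraries under 2 CPM, where counting error is largest relative to the level. No paired analysis was possible because the labels give mouse identifiers and no replicate numbers shared between groups.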
